A study of Mus musculus with 10 samples.

Results

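GABA is the main inhibitory transmitter of the forebrain, and most neurons of the nucleus accumbens (NAc) release it. The 7 genes described here carry the working steps of GABA signalling: synthesis (Gad1 and Gad2), loading into vesicles (Slc32a1), uptake into glia (Slc6a11), breakdown (Abat) and the slow metabotropic receptor (Gabbr1 and Gabbr2). They were found by gene symbol through their Ensembl identifiers, and all 7 were among the 29883 genes of the deposited count table. The NAc was taken from 5 C57BL/6J (B6) and 5 DBA/2J (D2) mice, inbred strains that differ in many ethanol-related behaviours. Every mouse was male, about 9 weeks old and ethanol-naive, and each gave 1 poly-A RNA library, so that the mouse was the replicate and females were not studied. The comparison asked which genes differ between the strains at baseline.

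Glutamate decarboxylase makes GABA from glutamate. Its form GAD67 is encoded by Gad1 and found throughout the neuron, while GAD65 is encoded by Gad2 and sits at the terminals. The vesicular transporter VGAT, from Slc32a1, fills synaptic vesicles with GABA. Released GABA is cleared by plasma membrane transporters, among them GAT3 of astrocytes (Slc6a11), and is broken down in mitochondria by GABA transaminase (Abat). The GABA-B receptor is a pair of subunits, of which the product of Gabbr1 binds GABA and that of Gabbr2 couples to G proteins.

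Between the strains, 2 of the 7 genes passed the threshold of 0.05 on the adjusted p in edgeR's quasi-likelihood test with Benjamini-Hochberg adjustment over all genes, where 18.3% of all genes tested did so. Gad1 was higher in D2 by 1.17-fold (95% confidence interval 1.06 to 1.30), and Gabbr1 was lower in D2 by 1.13-fold. The share of all genes called was 8.5% for higher and 9.83% for lower levels in D2. Gad2, Slc32a1, Slc6a11, Abat and Gabbr2 did not pass. The direction of these 5 genes depended on which mice or covariates entered the fit, as described with each gene.

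Counts summed to between 96977262 and 116776714 per library. Mitochondrial genes took 4.61 to 4.97% of them in B6 and 3.84 to 4.02% in D2, without overlap. With these genes left out of the fit 2 of the 7 genes were again called. The level of each gene is given as normalized counts per 1000000 (CPM), that is, counts scaled by the library total and edgeR's TMM factor. The 10 striatal projection neuron markers summed to between 5368 and 6375 CPM in B6 and between 4375 and 5198 CPM in D2. Of these, 8 were called lower in D2, while Ppp1r1b and Drd1 were not (edgeR adjusted p = 0.071 and 0.67). B6 replicates 3 and 5 stood apart. Their 6 markers of cortex projection neurons, such as Slc17a7 and Neurod6, summed to 929 and 941 CPM, against 74.2 to 159 CPM in the other 3 B6 mice and 213 to 579 CPM in D2. All 6 cortex markers and all 5 oligodendrocyte markers were higher in these 2 mice than in the 8 others. So were 3 of 4 endothelium and 3 of 4 blood markers, while 4 of 6 pallidum and septum and 4 of 5 meninges markers were lower in them than in all others. Between the strains, 3 of 5 oligodendrocyte and 2 of 4 blood markers were called lower in D2, as were 1 of 6 for striatal interneurons and 1 of 5 for choroid plexus and ependyma. Of the pallidum and septum markers 1 was called higher, as was 1 of 5 for meninges, while microglia had 1 of 5 in each direction and endothelium 0 of 4. The part of these cell types in the differences described here was not tested. The closest pair of replicates was again B6 replicates 3 and 5. Their chi-square averaged 4.89 a gene across the 15388 genes of at least 100 counts, which is above sampling noise. The next closest pair, D2 replicates 3 and 5, averaged 17.5. The other B6 pairs ran from 19.1 (replicates 2 and 4) to 119 (replicates 1 and 5). A value above sampling noise cannot tell separate mice from repeat libraries of 1 mouse, so near-duplication was not excluded. Both were kept because the sample labels name them as separate mice. In bulk tissue, fewer cells of a type and less RNA per cell cannot be told apart.

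The sequences in front of the start sites are shown for the genes that differed and for Slc32a1, whose upstream region is transcribed from the opposite strand. Each is the 250 bases before the start that the largest number of annotated coding transcripts share, read 5′ to 3′ from the GRCm39 forward strand. Capitals mark a match to the CCAAT box. The GC box (GGGCGG), the TATA box (TATAAA) and the cAMP response element (TGACGTCA) were also searched, all on both strands. None of these motifs overlaps another in the windows shown.
Gad1, chr2:70391353-70391602: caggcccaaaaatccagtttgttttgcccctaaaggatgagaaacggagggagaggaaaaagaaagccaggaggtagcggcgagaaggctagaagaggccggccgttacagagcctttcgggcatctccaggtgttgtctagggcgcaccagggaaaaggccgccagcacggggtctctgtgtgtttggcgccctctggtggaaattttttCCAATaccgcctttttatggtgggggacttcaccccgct
Slc32a1, chr2:158452355-158452604: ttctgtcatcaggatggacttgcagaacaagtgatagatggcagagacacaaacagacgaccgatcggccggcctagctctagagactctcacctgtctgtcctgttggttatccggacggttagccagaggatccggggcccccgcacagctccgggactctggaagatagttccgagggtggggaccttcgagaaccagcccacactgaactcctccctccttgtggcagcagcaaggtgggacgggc
Gabbr1, chr17:37356453-37356702: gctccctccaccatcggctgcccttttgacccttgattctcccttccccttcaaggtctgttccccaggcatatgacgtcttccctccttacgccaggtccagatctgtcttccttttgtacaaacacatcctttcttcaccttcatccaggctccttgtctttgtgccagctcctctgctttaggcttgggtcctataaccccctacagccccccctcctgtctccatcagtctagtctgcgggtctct
Among 21594 such windows of protein-coding genes, 36.6% held a CCAAT box, 35.5% a GC box, 11.9% a TATA box and 1.57% a cAMP response element. The Gad1 window held 1 CCAAT box and none of the other motifs, and the Slc32a1 and Gabbr1 windows held none of the 4. GC content was 55.6% for Gad1, 58.8% for Slc32a1 and 54.4% for Gabbr1, near the median of 52.8%. All 250 bases of the Slc32a1 window lie in annotated exons of Gm14204, a long noncoding RNA of the reverse strand. Both strains were aligned to GRCm39, the genome of B6, and D2 bases at these sites were not analysed here.

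Gad1 (ENSMUSG00000070880; GRCm39 chr2:70383416-70432372, forward strand) stood at 679, 666, 565, 658 and 574 CPM in B6 replicates 1 to 5. In D2 replicates 1 to 5 it stood at 813, 673, 691, 717 and 779.6 CPM. The highest B6 mouse lay just above the lowest D2 mouse, and the other 4 D2 mice were above every B6 mouse. The means were 628 ± 54.2 CPM in B6 and 735 ± 59.6 CPM in D2 (SD, n = 5 each). In edgeR the log2 fold change (D2 over B6) was 0.23 with a standard error of 0.068 (adjusted p = 0.036), and the two-sided exact permutation test gave p = 0.016. This call depended on single mice. It was lost without B6 replicate 3, B6 replicate 5, D2 replicate 1, D2 replicate 4 or D2 replicate 5, and kept in the other 5 of 10 such fits, with log2 fold changes between 0.18 and 0.26 over the 10. Without B6 replicates 3 and 5 together it was 0.14 (edgeR adjusted p = 0.13), while with the level of the cortex markers as a covariate it was 0.27 (edgeR adjusted p = 4.7e-05).

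Gad2 (ENSMUSG00000026787; chr2:22511862-22583886, forward strand) had 868, 769, 577, 809 and 554 CPM in B6 and 804, 636, 648, 779 and 773 CPM in D2. The D2 mice all lay inside the B6 range, of which B6 replicates 3 and 5 formed the low end. Their log2 fold change was 0.025, with a 95% confidence interval from -0.24 to 0.29 (edgeR adjusted p = 0.93). It turned to -0.16 without B6 replicates 3 and 5 (edgeR adjusted p = 0.18) and was 0.14 with the cortex covariate (edgeR adjusted p = 0.092).

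Slc32a1 (ENSMUSG00000037771; chr2:158452605-158464883, forward strand) was measured at 312, 318, 225, 315 and 227 CPM in B6 and at 299.8, 227, 261, 261 and 293 CPM in D2. Apart from B6 replicates 3 and 5, each B6 mouse was above every D2 mouse. Over all mice the log2 fold change was -0.059, with a 95% confidence interval from -0.30 to 0.19 (edgeR adjusted p = 0.79). Without those 2 mice it was -0.23 (edgeR adjusted p = 0.042, where 19.2% of all genes were called), and with the cortex covariate it was 0.041 (edgeR adjusted p = 0.58). It was below 0 in all 10 fits that left out 1 mouse, and among the fits run only the covariate turned its sign.

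**Figure D1:**
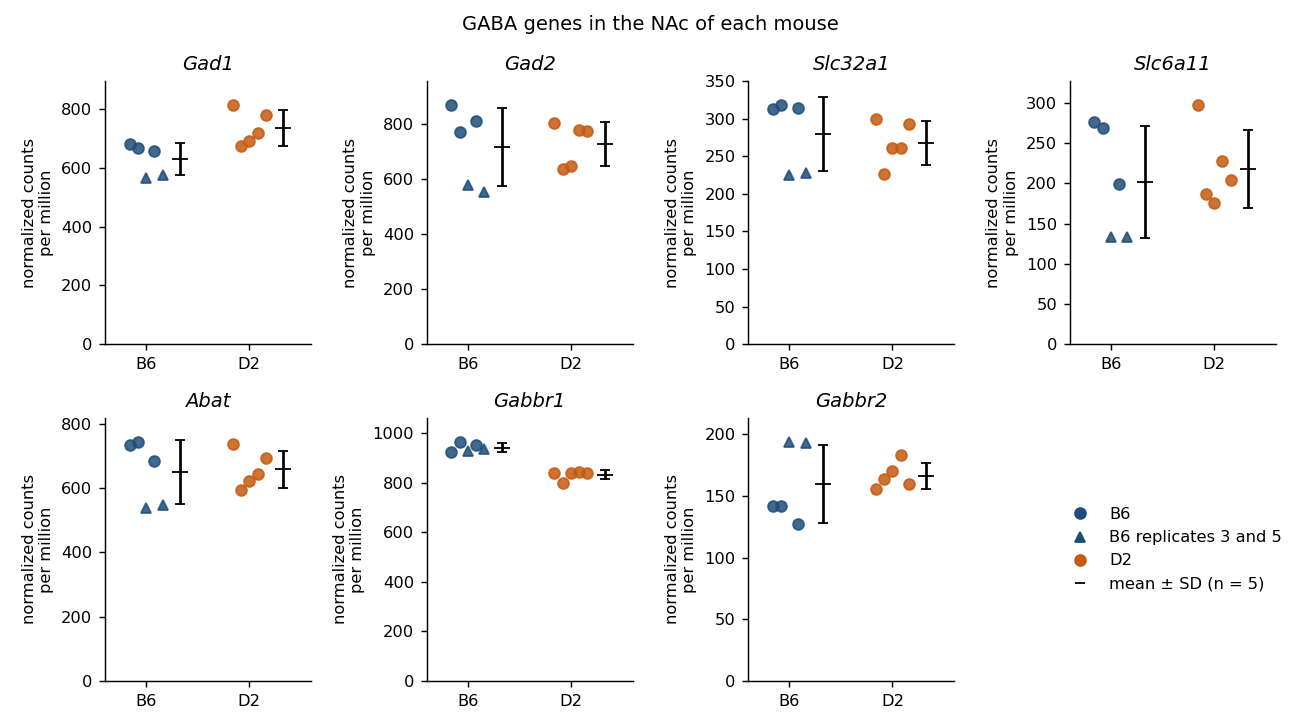
CPM (vertical axes, from 0) of the 7 genes in each B6 and D2 mouse, with the mean ± SD of the 5 mice of a strain. Gabbr1 separates the strains, with B6 mice from 924 to 966 CPM and D2 mice from 800.1 to 842 CPM. B6 replicates 3 and 5 (triangles) are the lowest B6 mice for Gad1, Gad2, Slc32a1, Slc6a11 and Abat and the highest for Gabbr2.

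Slc6a11 (ENSMUSG00000030307; chr6:114108200-114226913, forward strand) varied most among the mice, with a coefficient of variation of 34.4% in B6 and 22.2% in D2. It was at 276, 269, 133, 199.7 and 134 CPM in B6 and at 297, 187, 175, 228 and 204 CPM in D2. B6 replicates 3 and 5 were below all 8 other mice, and the strains otherwise overlapped. A log2 fold change of 0.11 had a 95% confidence interval from -0.36 to 0.58 (edgeR adjusted p = 0.80). It was 0.34 with the cortex covariate (edgeR adjusted p = 0.0037) and -0.18 without B6 replicates 3 and 5 (edgeR adjusted p = 0.48).

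Abat (ENSMUSG00000057880; chr16:8331233-8439996, forward strand) gave 734, 745, 539, 685 and 548 CPM in B6 and 737, 595, 624, 643 and 694 CPM in D2. Here too the D2 mice lay within the B6 range and B6 replicates 3 and 5 were below all other mice. Between the strains the log2 fold change was 0.019 with a standard error of 0.097 (edgeR adjusted p = 0.93), and the fold lay between 0.875 and 1.17 at 95% confidence. With the cortex covariate it was 0.11 (edgeR adjusted p = 0.020), and without those 2 mice -0.13 (edgeR adjusted p = 0.18).

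Gabbr1 (ENSMUSG00000024462; chr17:37356703-37387265, forward strand) was the steadiest of the 7 genes, with a coefficient of variation of 1.85% in B6 and 2.16% in D2. B6 replicates 1 to 5 held 924, 966, 929, 953 and 937 CPM. D2 replicates 1 to 5 held 839.7, 800.1, 839.6, 842 and 839.7 CPM. Every B6 mouse was above every D2 mouse, as was true of 8.63% of all genes, and B6 replicates 3 and 5 did not stand apart. The means were 942 ± 17.5 CPM in B6 and 832 ± 18.0 CPM in D2 (SD, n = 5 each). On the log2 scale D2 differed from B6 by -0.18 (standard error 0.033, edgeR adjusted p = 0.0018), and the fold of D2 over B6 had a 95% confidence interval from 0.841 to 0.928. The exact permutation test gave p = 0.0079, the smallest possible for 5 mice against 5. Gabbr1 passed in all 10 fits that left out 1 mouse, with log2 fold changes from -0.19 to -0.16, and without B6 replicates 3 and 5 (-0.19, edgeR adjusted p = 0.0016). The part of D2 reads lost in alignment to the B6 genome was not tested.

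Gabbr2 (ENSMUSG00000039809; chr4:46662244-46991971, reverse strand) behaved differently from its partner subunit among the B6 mice. It was at 142, 142, 194, 127 and 193 CPM in B6 and at 155, 164, 170.3, 183 and 159.9 CPM in D2. B6 replicates 3 and 5 were above all 8 other mice, while the other 3 B6 mice were below every D2 mouse. Over all mice the log2 fold change was 0.062, with a fold interval from 0.885 to 1.23 (edgeR adjusted p = 0.78). Without those 2 mice it was 0.28 (edgeR adjusted p = 0.0031), and with the cortex covariate it was close to 0 (edgeR adjusted p = 0.997).

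**Figure D2:**
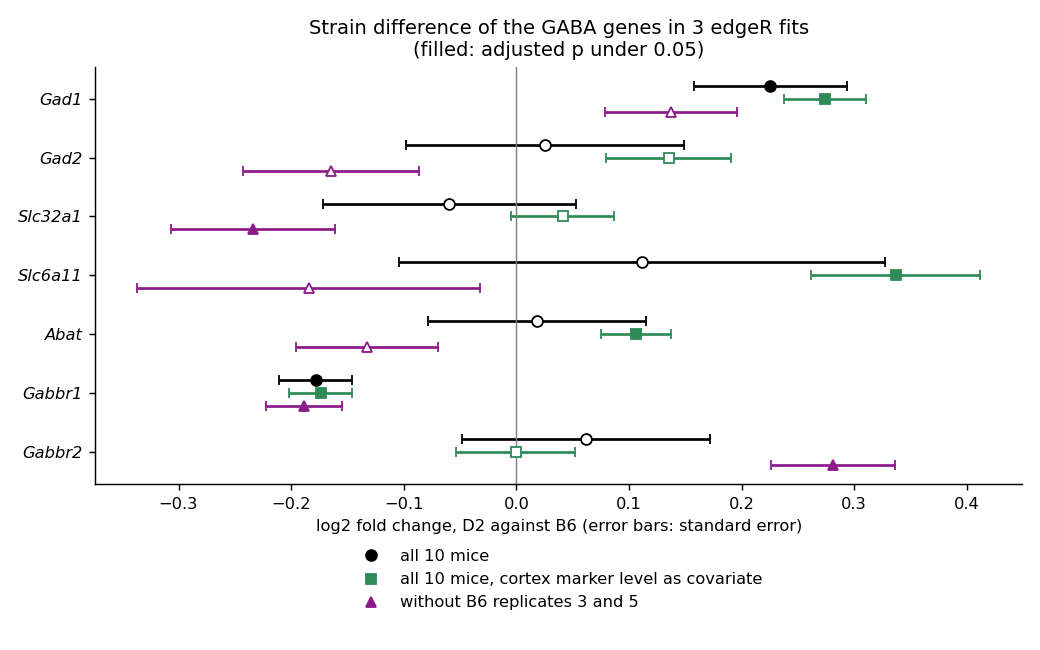
Log2 fold changes (D2 over B6, horizontal axis, with the standard error) of the 7 genes in 3 edgeR fits. Filled symbols passed an adjusted p of 0.05. Gabbr1 lies between -0.19 and -0.17 in the 3 fits, whereas Slc6a11 ranges from -0.18 to 0.34 and Gabbr2 from 0.00 to 0.28.

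The cortex markers moved with these differences, and their part in them was not tested. With the covariate, 4 of the 7 genes passed (Gad1, Slc6a11 and Abat higher and Gabbr1 lower in D2), where 26.2% of all genes did so. Without B6 replicates 3 and 5, 3 passed (19.2% of all genes), namely Slc32a1 and Gabbr1 lower and Gabbr2 higher in D2. Gabbr1 passed in the same direction in both fits. The cortex marker list as such did not differ between the strains, with 0 of its 6 genes called.

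**Figure D3:**
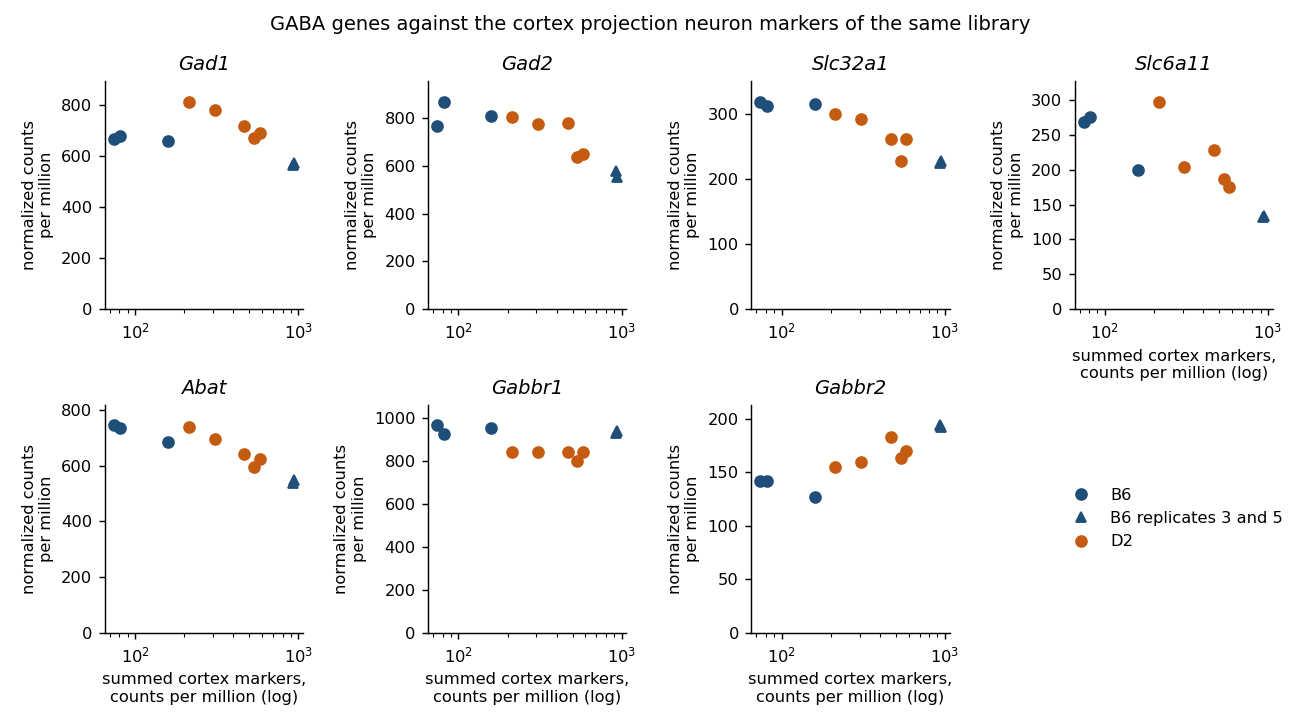
CPM of each gene (vertical axes, from 0) against the summed CPM of the 6 cortex projection neuron markers in the same library (horizontal axes, log scale), 1 point per mouse. B6 replicates 3 and 5 lie at 929 and 941 CPM of cortex markers, with Slc6a11 at 133 and 134 CPM and Gabbr2 at 194 and 193 CPM.

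Levels were compared between genes per kilobase of exon, with every annotated exon base of a gene counted once. This length is not that of the transcripts expressed, so the order depends on the annotation. By the mean of the 10 mice the order was Gad2 (111 CPM per kb), Gabbr1 (94.6), Abat (67.9), Gad1 (65.5), Slc32a1 (54.7), Slc6a11 (41.6) and Gabbr2 (19.7). The ranges of Abat and Gad1 overlapped in both strains, as did those of Slc32a1 and Slc6a11. Gad2 and Gabbr1 overlapped in B6 but not in D2, and the same was true of Gad1 and Slc32a1. Gabbr1 was apart from Abat, and Slc6a11 from Gabbr2, in both strains.

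Ratios of counts within a library do not depend on the scaling between libraries, and they were tested by exact two-sided permutation with Benjamini-Hochberg adjustment over a family of 7. The ratio of Slc32a1 to the sum of Gad1 and Gad2, vesicular transporter to synthesis, was 0.202, 0.222, 0.197, 0.214 and 0.201 in B6. In D2 it was 0.185, 0.173, 0.195, 0.174 and 0.188. Every D2 mouse was below every B6 mouse, B6 replicates 3 and 5 included, with a log2 difference of -0.18 (permutation p = 0.0079, adjusted p = 0.028). The ratio of Abat to the same sum averaged 0.484 ± 0.021 for B6 and 0.451 ± 0.0136 for D2 (SD, n = 5 each). These groups did not overlap either, with a log2 difference of -0.10 (permutation p = 0.0079, adjusted p = 0.028). Relative to GAD transcripts, both the vesicular transporter and the breakdown enzyme were lower in D2. The 2 ratios share their denominator and are not separate results. By themselves neither Slc32a1 (log2 fold change -0.059) nor Abat (0.019) passed (edgeR adjusted p = 0.79 and 0.93).

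The sum of Gad1 and Gad2 relative to the geometric mean of the 10 striatal projection neuron markers averaged 3.15 ± 0.366 for B6 and 4.19 ± 0.436 for D2 (SD, n = 5 each), a 1.33-fold difference (permutation p = 0.016, adjusted p = 0.037). The markers themselves averaged 8.73 ± 0.0994 in B6 and 8.45 ± 0.0948 in D2 (log2 CPM, SD, n = 5 each). This difference of -0.29 was the larger part of the log2 ratio difference of 0.42. The sum of Gad1 and Gad2 was not tested by itself. The highest B6 mouse, at 3.71, lay just above the lowest D2 mouse, at 3.69. The ratio of Gad1 to Gad2 was 0.895 ± 0.109 in B6 and 1.01 ± 0.0581 in D2 (permutation adjusted p = 0.13), and that of Gabbr1 to Gabbr2 6.10 ± 1.21 and 5.02 ± 0.316 (permutation adjusted p = 0.19). Slc6a11 relative to the geometric mean of 8 astrocyte markers was 1.57 ± 0.514 and 1.76 ± 0.337 (permutation adjusted p = 0.48). The 3 ratios that passed kept their direction with any 1 mouse left out. Those of Slc32a1 and Abat had the smallest possible p for 4 mice against 5, 0.016, in all 10 such tests. Both outcomes were fixed in advance for these 2 ratios, because their groups did not overlap over all mice. At that size the adjusted p cannot go below 0.056 unless more than 2 ratios reach the smallest p. Whether the Slc32a1 and Abat ratios pass with 1 mouse left out therefore says nothing of their stability. The ratio to the striatal markers reached 0.016 only without B6 replicate 1 or D2 replicate 3. In the other such tests its permutation p was 0.032, above the smallest possible, and it did not pass.

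**Figure D4:**
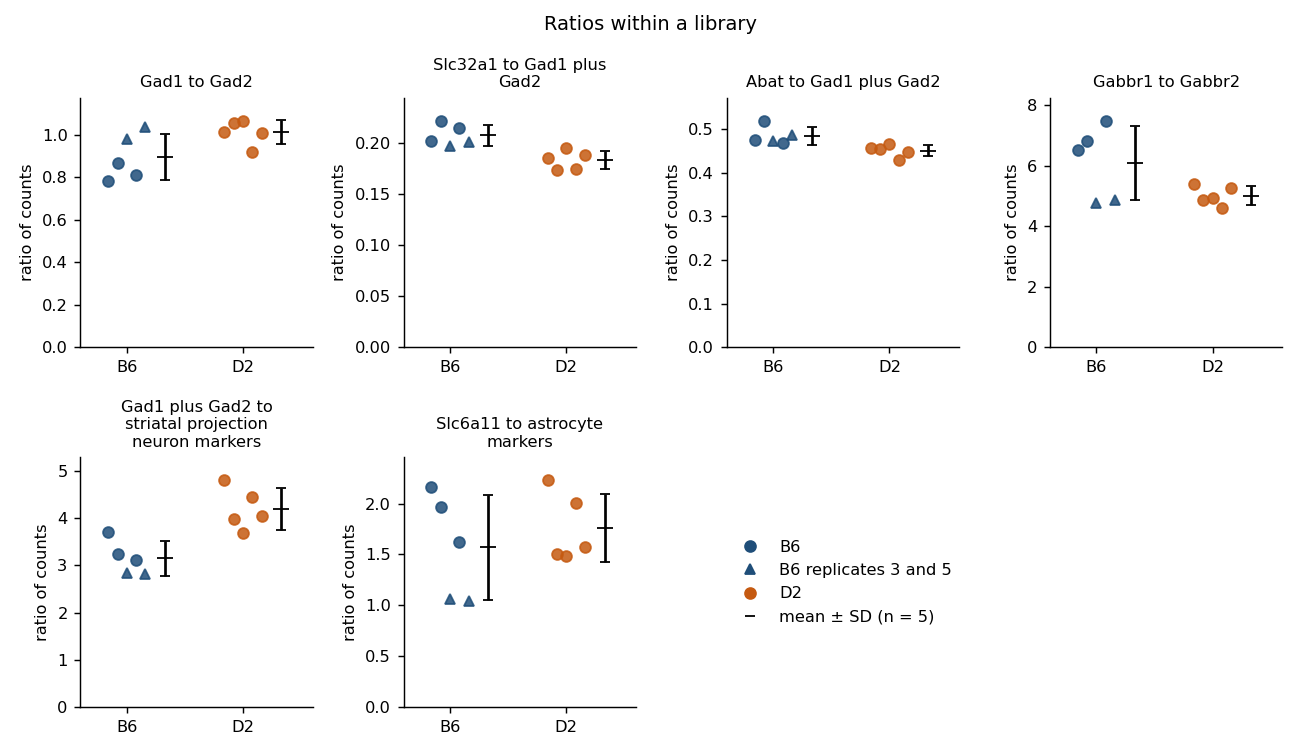
The 6 ratios of counts within a library (vertical axes, from 0) in each mouse, with the mean ± SD of the 5 mice of a strain. The ratio of Slc32a1 to Gad1 plus Gad2 is at 0.197 or more in B6 and at 0.195 or less in D2, with B6 replicates 3 and 5 (triangles) also above all D2 mice.

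Genes that overlap the 7 were examined because reads of 2 overlapping genes cannot be told apart where strand is not used, and whether the counting used strand is not stated in the sources used here. Gm14204 (chr2:158437382-158452906, reverse strand) overlaps the first 302 bases of Slc32a1. It had 37.9, 38.9, 24.4, 33.2 and 23.7 CPM in B6 and 59.6, 53.0, 55.3, 59.1 and 62.1 CPM in D2. The log2 fold change of 0.87 had a standard error of 0.13 (edgeR adjusted p = 3.4e-04). It passed in all 10 fits that left out 1 mouse and without B6 replicates 3 and 5 (0.66, edgeR adjusted p = 1.0e-05). This antisense neighbour of the vesicular transporter was 1.83-fold higher in D2, while Slc32a1 itself did not pass. Gad1os, antisense to the first part of Gad1, had 1.32 ± 0.203 CPM in B6 and 0.952 ± 0.238 CPM in D2 (SD, n = 5 each; edgeR adjusted p = 0.098). Gm14205, inside Slc32a1 on the other strand, averaged 25.6 counts, the pseudogene Gad1-ps 7.5 counts and Mir3967, inside Gad2, 1.3 counts, and none of them passed.

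Within 500 kb of the 7 genes, 16 of 127 other genes were called (12.6%), against 18.3% of all genes. The region of Slc32a1 held 7 of 22, that of Gabbr1 4 of 19, and those of Gad1 and Slc6a11 none of 13 and none of 19. Beside Slc32a1, Actr5, a subunit of the INO80 chromatin remodelling complex, was lower in D2 (log2 fold change -0.24, edgeR adjusted p = 0.020). Near Gabbr1, which lies in the major histocompatibility region, the myelin gene Mog was lower (-0.41, edgeR adjusted p = 0.014) and the class I gene H2-M5 higher in D2 (0.57, edgeR adjusted p = 0.0020). Mog is among the oligodendrocyte markers, and it did not pass without B6 replicates 3 and 5 (-0.30, edgeR adjusted p = 0.063). Near Gabbr2, Trmo, a tRNA methyltransferase gene, was lower in D2 (-1.45, edgeR adjusted p = 4.2e-06), and near Abat the noncoding RNA Gm30371 was lower (-0.38, edgeR adjusted p = 0.048), though in only 2 of the 10 fits without 1 mouse.

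Other genes of GABA metabolism and signalling were read from 5 lists with 42 genes. Of these, 7 were called (16.7%, against 18.3% of all genes), 1 higher and 6 lower in D2 (8.5% and 9.83% of all genes), and their median log2 fold change was near 0, as it was over all genes. In the supply of glutamate and glutamine, 2 of 11 passed. Glul, the glutamine synthetase of astrocytes, fell from 1159 ± 87.2 CPM in B6 to 719 ± 35.5 CPM in D2 (SD, n = 5 each). Its log2 fold change was -0.69 (edgeR adjusted p = 1.7e-06), with no overlap between the strains, as for the 8.63% of all genes that were lower in D2 without overlap. Glud1, the mitochondrial glutamate dehydrogenase, was higher in D2 (0.22, edgeR adjusted p = 0.020), but not past the threshold without B6 replicates 3 and 5 (edgeR adjusted p = 0.062). Among the 8 astrocyte markers 1 was called higher and 3 lower in D2, and their summed level ran from 1390 to 1542 CPM in B6 and from 1246 to 1424 CPM in D2.

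Of 6 genes for GABA transport and breakdown, 1 passed. Adhfe1, which oxidizes gamma-hydroxybutyrate, was lower in D2 (log2 fold change -0.34, edgeR adjusted p = 0.0013). Aldh5a1, which follows Abat in the pathway, did not pass (0.066, edgeR adjusted p = 0.59) except with the cortex covariate (0.12, edgeR adjusted p = 0.0067). Of 4 genes for other routes to GABA, which start from putrescine, 2 passed. Odc1, the ornithine decarboxylase that makes putrescine, was lower in D2 (-0.33, edgeR adjusted p = 0.0027), and so was Maob, the monoamine oxidase of astrocytes (-0.36, edgeR adjusted p = 4.7e-04). Both were lower in all 5 D2 mice than in any B6 mouse, as were 8.63% of all genes.

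Among 10 partners and effectors of the GABA-B receptor, which include the auxiliary KCTD subunits and the GIRK potassium channels, 1 passed. Ajap1, whose product binds the extracellular part of the Gabbr1 subunit, was lower in D2 (log2 fold change -0.13, edgeR adjusted p = 0.049), in 4 of the 10 fits without 1 mouse. App, the amyloid precursor protein and another such ligand, missed the threshold (-0.12, edgeR adjusted p = 0.052) but passed with the cortex covariate (-0.14, edgeR adjusted p = 0.0033). The channel genes Kcnj3, Kcnj6 and Kcnj9 did not pass over all mice. Without B6 replicates 3 and 5 all 3 were called higher in D2, by 0.58 for Kcnj3, 1.00 for Kcnj6 and 0.44 for Kcnj9 (edgeR adjusted p = 3.9e-04, 0.0014 and 8.0e-05). With the cortex covariate Kcnj3 was called lower (-0.19, edgeR adjusted p = 0.021) and the other channel genes did not pass. Of 11 transcription factors of GABAergic neurons, 1 passed. Meis2, a homeobox gene of striatal projection neurons, fell from 379.6 ± 21.7 CPM in B6 to 263 ± 15.1 CPM in D2 (SD, n = 5 each; log2 fold change -0.53, edgeR adjusted p = 6.8e-06). The Dlx genes, which drive Gad expression in development, gave log2 fold changes from -0.11 to 0.04 and did not pass. Without B6 replicates 3 and 5, Dlx5 (-0.28, edgeR adjusted p = 0.0078) and Dlx6 (-0.26, edgeR adjusted p = 0.015) were called lower in D2.

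**Figure D5:**
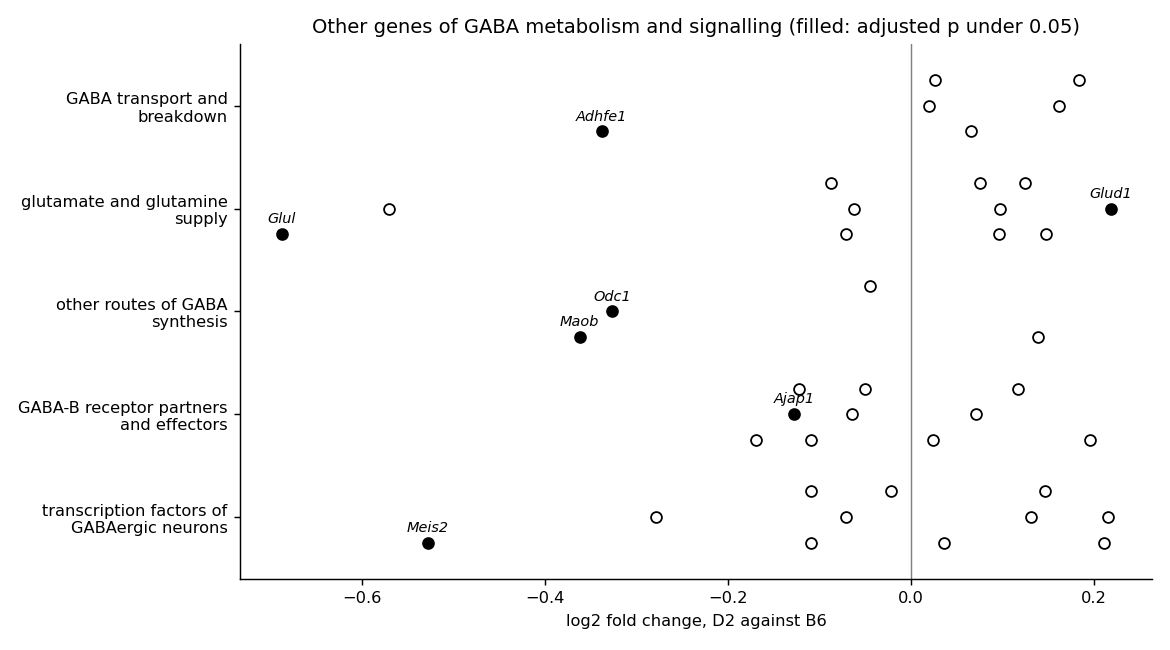
Log2 fold changes (D2 over B6, horizontal axis) of 42 other genes of GABA metabolism and signalling, 1 row of points for each of 5 lists. Filled points passed an adjusted p of 0.05; of these, Glud1 lies above 0, and Glul (-0.69) and Meis2 (-0.53) lie furthest below.

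With the cortex covariate 17 of the 42 genes were called, where 26.2% of all genes were, and without B6 replicates 3 and 5 it was 19, where 19.2% of all genes were. Glul, Adhfe1, Maob, Odc1, Ajap1 and Meis2 passed in both of these fits.

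The genes most like each of the 7 across the mice were sought among 15388 genes, by Pearson's r of log2 CPM over 10 libraries with the strain means removed. These values describe libraries that share the contrast between B6 replicates 3 and 5 and the rest, so r is also given over the 8 other libraries. The nucleoporin gene Nup50 was among the 2 most like Gad1 (r = 0.98, and 0.95 over 8). Gad2 was most like Gpr149 (0.99 and 0.95) and the protocadherin gene Pcdh8 (0.98 and 0.95). Slc32a1 came closest to the transcription factor gene Nfatc2 (0.99 and 0.97) and the vesicular transporter gene Slc10a4 (0.99 and 0.97). Slc6a11 came closest to Psd2 (0.99 in both) and Itih3 (0.99 in both), and Abat to Olfm4 (0.99 in both) and the acetylcholinesterase gene Ache (0.99 and 0.98). Gabbr1 had lower values, to the lysosomal transporter gene Slc46a3 (0.92 and 0.93) and Clvs2 (0.92 in both). Gabbr2 was most like the adhesion molecule gene Nrcam (0.98 and 0.88) and the ubiquitin ligase gene Herc3 (0.98 and 0.91). None of these 13 genes passed the strain comparison.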

How the data were processed

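Poly-A RNA of the NAc was sequenced from 10 male mice, 5 per strain, with 1 library per mouse and groups taken from the sample labels. The authors trimmed reads with fastp, aligned them to GRCm39 with STAR 2.7.10b, handled alignments with SAMtools 1.6 and counted reads per gene with featureCounts (versions from the submitters' processing notes). The deposited table holds raw read counts for each gene, with genes of median 0 removed by the authors. Of the table's columns, 3 belong to no sample and were not used.

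Counts were fitted with edgeR 4.0.16 in R 4.3.3 (TMM, quasi-likelihood F test, two-sided, strain as the only term, Benjamini-Hochberg adjustment over 29883 genes, threshold 0.05). Single values and ratios were compared with exact permutation tests over 252 assignments in Python 3.11.15 with scipy 1.17.1. Scripts were tested on simulated data. Gene positions came from GENCODE and sequences from GRCm39.

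The genes and lists were chosen with earlier results of these data known. The rule for named genes took all 7 genes; up to 4 called genes per list; the 2 most correlated genes of each, with a mean of at least 100 counts; up to 2 called neighbours within 500 kb of each; and overlapping genes and pseudogenes. Aldh5a1, App and the Kcnj and Dlx genes were named after their values were seen. Of the genes under the rule 1 is not reported here, nor is the ratio that used it, which stays in the family of 7 for the adjustment. Cell type markers came in 11 lists with 64 genes. The alternatives were DESeq2 1.42.0 and other scalings, filters on low counts, stricter thresholds, a covariate for the cortex marker level, a block for the replicate number and the removal of single mice. B6 replicates 3 and 5 were left out together as an alternative chosen after seeing the data.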

Additional observations from a re-analysis of the deposited data

Results flagged for a closer look

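In D2, Gabbr1 was at 800.1 CPM in replicate 2, away from the other 4 D2 mice, which lay between 839.6 and 842 CPM. The gap was 0.944 of the range of the 5 mice, above Dixon's critical value of 0.71. It was the only 1 of 28 groups of 5 mice tested to pass, where chance gives about 1 in 20. Gabbr1 was also called lower in D2 without this mouse.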

How the results depend on the processing

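Gabbr1 kept its direction and its call in every fit run. Gad1 kept its direction in all of them and its call under the other scalings, filters and DESeq2, but with 1 mouse left out its log2 fold change ran from 0.18 to 0.26 and 5 of 10 fits did not call it, and without B6 replicates 3 and 5 it was 0.14. With the cortex marker covariate, Abat (0.11) and Slc6a11 (0.34) passed, Slc32a1 turned to 0.041 and Gabbr2 to -0.00050. Without B6 replicates 3 and 5 together, an alternative chosen after seeing the data, Abat was -0.13, Gad2 -0.16, Slc6a11 -0.18, Slc32a1 -0.23 (called) and Gabbr2 0.28 (called), and the ratio of Slc6a11 to astrocyte markers turned to -0.13 on the log2 scale. Without 1 mouse at a time, log2 fold changes ran from -0.047 to 0.072 for Abat, -0.061 to 0.10 for Gad2, -0.025 to 0.25 for Slc6a11 and -0.0094 to 0.14 for Gabbr2, so that their directions were not fixed. Of the 7 genes 2 were called, with 1 to 2 over the fits without 1 mouse, 1 at an adjusted p of 0.01 and 4 with the cortex covariate. Genes called in the table fell from 5478 to 3415 at 0.01. Of the other GABA genes, 17 passed with the cortex covariate (26.2% of all genes) and 19 without those 2 mice (19.2%). The lower share of calls was 53.6%, and 45.04% under total counts. Over the 20 alternatives the adjusted p ran from 2.5e-09 to 0.013 for Gabbr1 and from 4.7e-05 to 0.13 for Gad1 (edgeR or DESeq2). The causes were not tested.

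The ratios that passed numbered 3, between 0 and 3 without 1 mouse, where no p can be under 0.016, and 0 without B6 replicates 3 and 5, where no p can be under 0.036. In that last setting the ratios of Gad1 to Gad2 (log2 difference 0.30) and Gabbr1 to Gabbr2 (-0.47) had this smallest permutation p (adjusted p = 0.0625). The ratios of Slc32a1 and Abat had it too, which their lack of overlap over all mice fixed in advance. That of Gad1 plus Gad2 to striatal markers had a permutation p of 0.071, above the smallest possible. Replicate numbers are shared between strains, but no label says that a number marks a shared litter, batch or day. Same-number libraries deviated together in 2 of 5 pairs (correlations from -0.41 to 0.37), and 2 of 5 matched their own number best. With the replicate block 2 of the 7 genes were called (Gad1 at 0.23, Gabbr1 at -0.18), 7 of the other GABA genes, of which 6 were also called without it (Ajap1 was lost, edgeR adjusted p = 0.10, and Slc38a5 gained, 0.043), and 4731 genes in all. Under the block 0 ratios passed, as sign flips of 5 pairs cannot go below 0.0625.

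Depth did not limit these genes, whose lowest count in a library was 12518, and the spread between mice set their precision. The p-values rest on 5 mice a strain.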
